A study of Mus musculus with 35 samples.

Results

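The 8 genes Lrrc24, Neurl1a, Nxn, Mllt3, Crym, Ctse, Tnfsf10 and Pm20d1 were chosen by their large and uniform fall in livers of mice given an antisense oligonucleotide against Smyd3, compared with mice given a control oligonucleotide. They are 8 of 55413 genes in the count table and 8 of the 15297 that passed a filter on low counts. Because that comparison chose them, its values are given as a description and no test of it is reported for any of the 8. Smyd3 is a lysine methyltransferase, and an antisense oligonucleotide (ASO) is a short synthetic nucleic acid that pairs with a transcript and lowers its amount. The livers came from C57Bl6 mice in 4 groups. Untreated mice (5) were killed on postnatal day 260 and their samples are labelled normal liver. The P133 mice (4) received diethylnitrosamine (DEN), a liver carcinogen, as 1 intraperitoneal dose of 25 mg/kg on day 14, and were killed on day 133 without any ASO. The control-ASO mice (6) and the Smyd3-ASO mice (6) received the same DEN dose, then 50 mg/kg of their ASO intraperitoneally 2 times a week from day 133 until they were killed on day 260. All DEN samples are labelled as tumours, hepatocellular carcinoma. No group received DEN without an ASO until day 260, so the ASO injections and the later age cannot be told apart when either ASO group is set against the P133 mice, and DEN, ASO and tumour tissue cannot be told apart when it is set against untreated mice. Each label's biological replicate was taken as 1 mouse, and all p-values measure the spread between these mice.

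The 8 genes encode proteins with separate roles. Tnfsf10 encodes TRAIL, a ligand of the tumour necrosis factor family that binds death receptors and can start apoptosis through FADD and caspase-8. Neurl1a encodes a Neuralized E3 ubiquitin ligase, a family known for sending Notch ligands into endocytosis. Nxn encodes nucleoredoxin, a thioredoxin-family protein that binds Dishevelled, the transducer of Wnt signals. Mllt3 encodes AF9, a reader of acylated histones that links the super elongation complex and the H3K79 methyltransferase DOT1L to chromatin. Crym encodes mu-crystallin, a cytosolic protein that binds thyroid hormone and reduces ketimines. Ctse encodes cathepsin E, an aspartic protease of endosomes, and Pm20d1 a secreted enzyme that joins fatty acids to amino acids and also splits the product. Lrrc24 encodes a membrane protein with leucine-rich repeats and an immunoglobulin domain whose function is little known.

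The genes lie on 7 chromosomes of mm10, and only Ctse and Pm20d1 share one. Lrrc24 (ENSMUSG00000033707) lies at chr15:76715276-76722173 on the minus strand, Neurl1a (ENSMUSG00000006435) at chr19:47178820-47259441 on the plus strand, Nxn (ENSMUSG00000020844) at chr11:76257198-76399140 on the minus strand and Mllt3 (ENSMUSG00000028496) at chr4:87769925-88033364 on the minus strand. Crym (ENSMUSG00000030905) lies at chr7:120186380-120202111 on the minus strand, Ctse (ENSMUSG00000004552) at chr1:131638306-131675505 on the plus strand, Tnfsf10 (ENSMUSG00000039304) at chr3:27317028-27342427 on the plus strand and Pm20d1 (ENSMUSG00000042251) at chr1:131797381-131821473 on the plus strand. All 8 are annotated as protein-coding. Lrrc24 overlaps Lrrc14 on the opposite strand and C030006K11Rik on its own strand, and Neurl1a overlaps AC132288.1, AC132288.2 and AC132288.3. Whether counting used strand is not stated, so reads from these overlaps may not have been told apart, and the counts of Lrrc24 and Neurl1a are less certain for that reason.

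Promoter windows (250 bases before to 50 bases after the start, RefSeq, GRCm38.p6) were found for 4 of the 8 genes, Neurl1a, Nxn, Mllt3 and Tnfsf10. All 4 are shown. Of the patterns over the 4 groups described below, Tnfsf10 alone of these genes shows the first, and the other 3 show the second. They span chr19:47178570-47178869 on the plus strand for Neurl1a, chr11:76399092-76399391 on the minus strand for Nxn, chr4:88033358-88033657 on the minus strand for Mllt3 and chr3:27316827-27317126 on the plus strand for Tnfsf10. Capitals mark every match, on either strand, to CCCTCC (an element described as bound by SMYD3), TATAAA (known as a TATA box), GGGCGG (a binding element of Sp1), CCAAT (bound by NF-Y) and CACGTG (an E-box), and matches can overlap.
Neurl1a: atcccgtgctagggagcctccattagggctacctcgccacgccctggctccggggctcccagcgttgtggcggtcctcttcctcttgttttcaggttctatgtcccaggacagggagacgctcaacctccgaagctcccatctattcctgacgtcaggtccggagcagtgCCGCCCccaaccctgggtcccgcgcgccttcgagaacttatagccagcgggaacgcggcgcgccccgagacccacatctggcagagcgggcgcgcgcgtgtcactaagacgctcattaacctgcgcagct
Nxn: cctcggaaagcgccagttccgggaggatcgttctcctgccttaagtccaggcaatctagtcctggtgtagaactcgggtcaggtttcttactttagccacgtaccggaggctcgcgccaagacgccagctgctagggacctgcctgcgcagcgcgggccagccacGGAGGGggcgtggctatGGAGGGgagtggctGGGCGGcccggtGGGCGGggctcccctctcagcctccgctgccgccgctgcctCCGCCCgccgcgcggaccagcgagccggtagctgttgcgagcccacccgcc
Mllt3: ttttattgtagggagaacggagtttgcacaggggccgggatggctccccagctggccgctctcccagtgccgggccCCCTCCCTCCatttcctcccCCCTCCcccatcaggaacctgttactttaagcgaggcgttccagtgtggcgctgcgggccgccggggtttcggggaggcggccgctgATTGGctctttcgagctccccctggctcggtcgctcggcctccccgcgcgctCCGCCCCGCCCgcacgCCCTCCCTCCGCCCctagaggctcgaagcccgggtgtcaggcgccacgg
Tnfsf10: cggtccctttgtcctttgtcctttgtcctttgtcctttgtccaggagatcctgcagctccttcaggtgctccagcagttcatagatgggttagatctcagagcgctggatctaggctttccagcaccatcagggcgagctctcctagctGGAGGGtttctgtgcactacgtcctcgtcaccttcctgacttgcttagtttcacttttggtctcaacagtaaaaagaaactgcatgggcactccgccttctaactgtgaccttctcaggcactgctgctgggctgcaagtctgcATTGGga
CCCTCC had 2 matches in the Nxn window, 5 in that of Mllt3, 1 in that of Tnfsf10 and none in that of Neurl1a, and 39.2% of 32851 promoter windows hold it. GGGCGG was found in 3 of the 4 windows (35.7% of all windows), CCAAT in 2 (37.4%), and TATAAA (13.6%) and CACGTG (7.15%) in none. The Tnfsf10 window has 52.3% G and C, against 64.3% to 70.3% in the other 3. A second Mllt3 window, at chr4:87806274-87806573, holds only CCAAT matches. These matches describe letters, not binding.

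The labels were checked first on the targeted gene and on liver markers. Smyd3 stood at 3.87 ± 0.597 CPM (read counts scaled to a common library size; SD, n = 6) in control-ASO mice and at 0.325 ± 0.288 (n = 6) in Smyd3-ASO mice, a log2 change of -3.65 (SE 0.47, adjusted p = 1.48e-04 by edgeR's quasi-likelihood test with Benjamini-Hochberg adjustment), and no Smyd3-ASO mouse reached a control-ASO mouse. Total counts were 10186780 to 13116012 in untreated mice, 4556484 to 6447397 in P133 mice, 6789715 to 13805881 in control-ASO mice and 6358080 to 20258619 in Smyd3-ASO mice. The summed level of 8 hepatocyte markers was 85314 to 129114 CPM in untreated mice, 43993 to 46643 in P133 mice, 55895 to 81376 in control-ASO mice and 22400 to 39375 in Smyd3-ASO mice. Control-ASO mouse 1 stood apart in skeletal muscle transcripts (Acta1, Ckm and Myh4 together 452 CPM, against at most 1.14 in the other 20 mice). The range of log2 changes in Smyd3-ASO over control-ASO mice is also given without it. In bulk tissue, fewer cells of a type and less RNA per cell cannot be told apart.

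In the comparison that chose them, all 8 genes were lower in every Smyd3-ASO mouse than in any control-ASO mouse, which held for 5.83% of the genes tested; the choice fixes this count, and nothing is read from it. The log2 changes ran from -6.30 (Lrrc24) to -1.88 (Pm20d1), with a median of -3.63 beside 0.01 over all genes. Over all genes, 26.1% passed an adjusted p of 0.05, 12.9% as lower. By size of fall, Lrrc24 ranked 8 and Pm20d1 362 of the 15297 genes. Lrrc24 had 0 to 4 counts in each Smyd3-ASO mouse, where Pm20d1 had 227 to 724. By the gap between the lowest control-ASO mouse and the highest Smyd3-ASO mouse, Lrrc24 (14.8-fold) and Ctse (11.1-fold) ranked 2 and 5, and Pm20d1 (2.20-fold) ranked 94. Without control-ASO mouse 1 the log2 changes ran from -6.35 (Lrrc24) to -1.84 (Pm20d1), so the falls were about as large without the mouse that carried muscle transcripts.

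**Figure D1:**
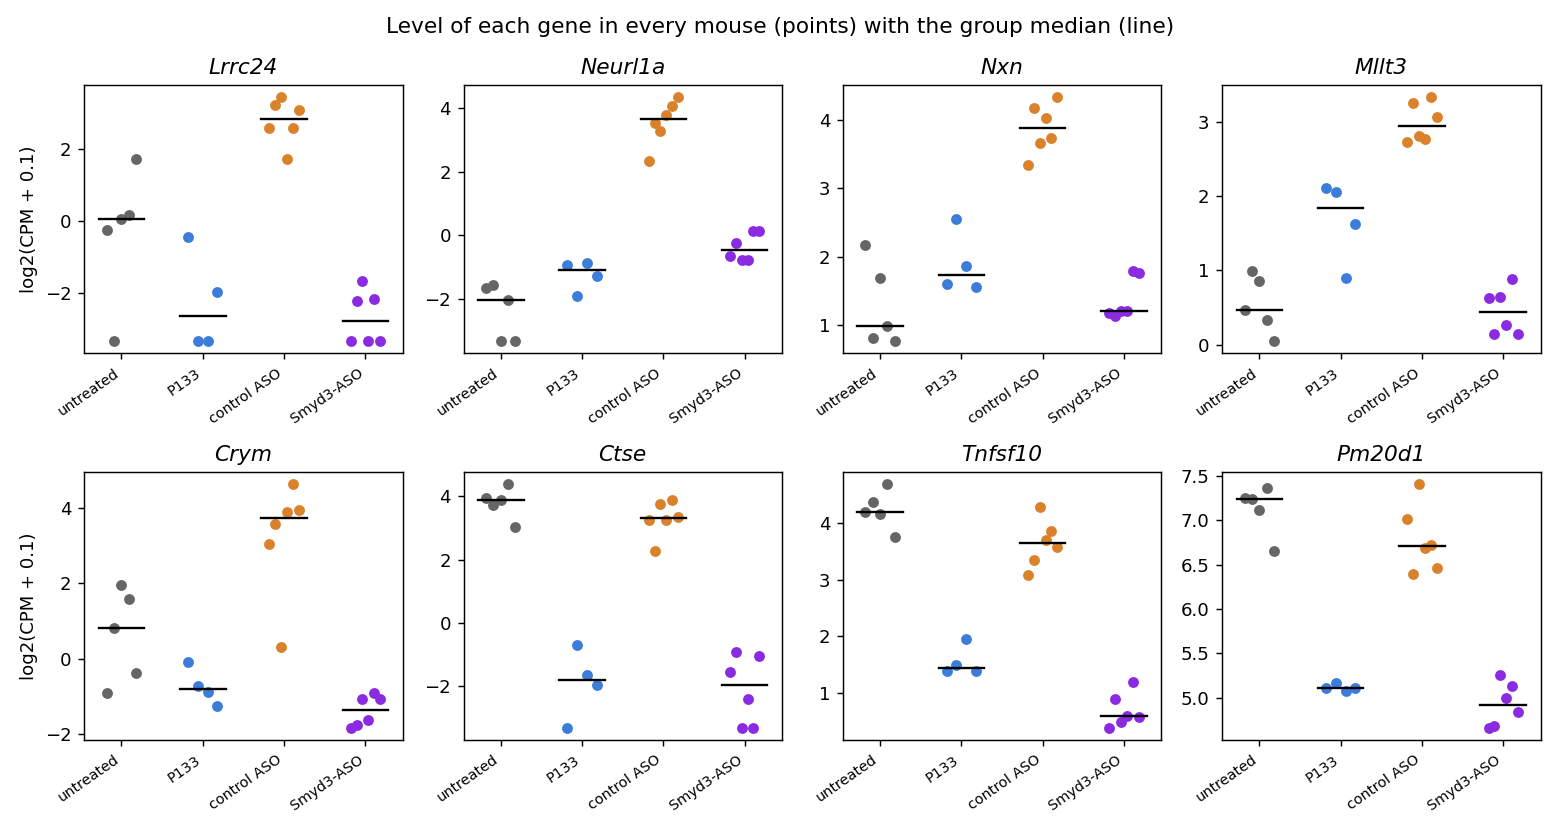
Level of each of the 8 genes in every mouse, on a scale of log2(CPM + 0.1), by group. Points are mice and lines are group medians. Ctse, Tnfsf10 and Pm20d1 are high in untreated and control-ASO mice and low in P133 and Smyd3-ASO mice, and Neurl1a, Nxn and Mllt3 are highest in the control-ASO mice.

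The 8 genes fell into different patterns once the P133 and untreated mice were added. In Ctse, Tnfsf10 and Pm20d1, every untreated and control-ASO mouse was above every P133 and Smyd3-ASO mouse, an arrangement that 102 of the 15297 genes (0.667%) showed. In Neurl1a, Nxn and Mllt3, every control-ASO mouse was above every mouse of the other 3 groups, as in 206 genes (1.35%). Lrrc24 and Crym were highest on average in control-ASO mice, but overlapped with untreated mice. Control-ASO mouse 1, which carried muscle transcripts, was the lowest control-ASO mouse for Neurl1a, Nxn, Mllt3 and Tnfsf10, and no gap is given without it. On levels scaled to library totals in place of TMM, the gaps of the first pattern were 8.21-fold (Ctse), 2.24-fold (Tnfsf10) and 1.54-fold (Pm20d1), those of the second were 4.20-fold (Neurl1a), 1.83-fold (Nxn) and 1.66-fold (Mllt3), and Lrrc24 also showed the second, with a gap of 1.93-fold. The 2 patterns were read from the values after the genes had been chosen, and each contains the comparison used to choose them. The comparison of P133 with untreated mice shares no mouse with that choice, and it is the only one in which the 8 genes are tested. It sets mice killed on day 133 against mice killed on day 260, so DEN, tumour tissue and age cannot be told apart in it.

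Among the genes of the first pattern, the protease gene Ctse had the widest gap. Untreated mice 1 to 5 had 15.2, 13.1, 14.8, 20.9 and 8.01 CPM of Ctse. The 4 P133 mice had 0, 0.508, 0.222 and 0.158 CPM, which are 0, 3, 1 and 1 counts. Ctse was thus near the limit of detection in every DEN liver at day 133 and plainly detected in every untreated liver. In control-ASO mice Ctse ran from 4.73 to 14.6 CPM with a median of 9.77. Its level in Smyd3-ASO mice ran from 0 to 0.427 CPM with a median of 0.164, and 2 of the 6 had no count. The lowest mouse of the 2 high groups was 9.31 times the highest mouse of the 2 low groups. P133 mice were lower than untreated mice by a log2 change of -5.84 (SE 0.46, adjusted p = 6.85e-07 by edgeR), on 5 counts in the P133 mice together, and by -6.62 without P133 mouse 2. The change in Smyd3-ASO over control-ASO mice was -5.75 (SE 0.53), or -6.39 without Smyd3-ASO mouse 2, and in Smyd3-ASO over P133 mice -0.33 (SE 1.10) with overlapping groups. Control-ASO and untreated mice overlapped, at -0.50 (SE 0.27).

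Tnfsf10, which encodes the death ligand TRAIL, followed the same arrangement at a smaller fold. Untreated mice had 18.2, 20.7, 17.7, 25.8 and 13.5 CPM of Tnfsf10, and P133 mice 2.52, 2.71, 3.77 and 2.52 CPM. The control-ASO values ran from 8.37 to 19.5 CPM (median 12.4) and the Smyd3-ASO values from 1.20 to 2.18 CPM (median 1.40). Here the Smyd3-ASO mice formed the lowest group, since all 6 were below all 4 P133 mice, with a gap of 1.16-fold. With library totals that gap all but closed, at 2.48 CPM in Smyd3-ASO mouse 2 and 2.482 CPM in P133 mouse 4. Tnfsf10 fell in P133 mice by 2.74 on the log2 scale (SE 0.23, adjusted p = 1.32e-06 by edgeR). The change was -3.05 (SE 0.23) in Smyd3-ASO over control-ASO mice and -0.90 (SE 0.28) in Smyd3-ASO over P133 mice. It was -0.59 (SE 0.21) in control-ASO over untreated mice, which overlapped.

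Pm20d1, the gene of the N-acyl amino acid enzyme, rested on counts of 152 or more in every mouse. Untreated mice had 152, 151, 139, 164 and 101 CPM of Pm20d1. The 4 P133 mice had 34.5, 35.9, 33.7 and 34.4 CPM, a coefficient of variation of 2.70%. That was the narrowest spread of any of the 8 genes in any group. Values in control-ASO mice ran from 84.0 to 170 CPM (median 104) and Smyd3-ASO mice from 25.2 to 38.2 CPM (median 30.3). The P133 and Smyd3-ASO mice overlapped, and so did the untreated and control-ASO mice. P133 mice were lower than untreated mice by a log2 change of -2.03 (SE 0.15, adjusted p = 4.34e-07 by edgeR), beside -1.88 (SE 0.18) in Smyd3-ASO over control-ASO mice. The change was -0.18 (SE 0.15) in Smyd3-ASO over P133 mice and -0.32 (SE 0.18) in control-ASO over untreated mice.

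On TMM-scaled levels, the sums of the hepatocyte and erythroid markers were arranged like this pattern, and those of the other marker lists were not. The gaps were narrow, at 55895 against 46643 CPM for hepatocyte and 1622 against 1420 CPM for erythroid markers. Sums with library totals are not given, so whether these arrangements depend on scaling is not known. The summed hepatocyte markers above were also higher in every untreated and control-ASO mouse than in any P133 or Smyd3-ASO mouse. Of the 8 hepatocyte markers, 5 were lower and 1 was higher in Smyd3-ASO over control-ASO mice, and 6 were lower in P133 over untreated mice. Over all genes, 12.9% were lower in the first of these comparisons and 16.6% in the second. Serpina1b, a protease inhibitor gene with near-identical copies whose reads may be split, had log2 changes of -2.33 (adjusted p = 1.12e-04) and -3.27 (adjusted p = 1.15e-06). The summed level of 4 erythroid markers was 2404 to 6166 CPM (untreated), 1010 to 1420 (P133), 1622 to 4224 (control ASO) and 427 to 1011 (Smyd3-ASO). Of the 3 erythroid markers tested, 2 were lower and 1 was higher in Smyd3-ASO over control-ASO mice, and all 3 were lower in P133 over untreated mice. The part of these markers in the levels of Ctse, Tnfsf10 and Pm20d1 was not tested.

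Among the genes of the second pattern, Neurl1a, the gene of the Neuralized ligase, was near zero outside the control-ASO mice. Untreated mice had 0.215, 0.237, 0, 0.145 and 0 CPM of Neurl1a and P133 mice 0.420, 0.169, 0.443 and 0.315 CPM, in each case 2 counts or fewer. Control-ASO mice ran from 4.97 to 20.1 CPM (median 12.6), which is 73 to 248 counts. Smyd3-ASO mice ran from 0.486 to 1.01 CPM (median 0.639), and all 6 were above all untreated mice and, with a gap of 1.10-fold, all P133 mice. No Smyd3-ASO mouse lay in the untreated range of Neurl1a. The log2 change was -4.21 (SE 0.34) in Smyd3-ASO over control-ASO mice, 6.49 (SE 0.55) in control-ASO over untreated mice and 2.33 (SE 0.61) in Smyd3-ASO over untreated mice. In P133 over untreated mice it was 1.25 (SE 0.88, adjusted p = 0.299 by edgeR), a difference not detectable at these counts, and Neurl1a passed the filter on low counts only through the ASO mice.

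Nxn, the gene of nucleoredoxin, was highest in control-ASO mice, and its other 3 groups overlapped. Untreated mice had 4.40, 1.66, 3.11, 1.88 and 1.60 CPM of Nxn and P133 mice 2.94, 5.76, 3.54 and 2.84 CPM. Control-ASO mice ran from 10.0 to 20.01 CPM (median 14.7) and Smyd3-ASO mice from 2.09 to 3.37 CPM (median 2.21). The highest mouse outside the control-ASO group was P133 mouse 2, which the lowest control-ASO mouse exceeded 1.74-fold. The log2 change was -2.58 (SE 0.21) in Smyd3-ASO over control-ASO mice, 2.55 (SE 0.28) in control-ASO over untreated mice and -0.03 (SE 0.30) in Smyd3-ASO over untreated mice. The P133 change over untreated mice, 0.57 (SE 0.36, adjusted p = 0.246 by edgeR), did not pass.

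Mllt3, the gene of AF9, differed from Nxn in the P133 mice. Untreated mice had 1.29, 1.89, 1.71, 1.16 and 0.935 CPM of Mllt3 and P133 mice 4.20, 4.06, 1.77 and 3.00 CPM. P133 mouse 3 lay within the untreated range and the other 3 above it, but scaled to library totals that mouse (1.76) also lay above the untreated maximum (1.22). Mllt3 was higher in P133 mice by a log2 change of 1.22 (SE 0.35, adjusted p = 0.0151 by edgeR). That call ended without P133 mouse 1 (1.08, adjusted p = 0.0509) and without P133 mouse 2 (1.09, adjusted p = 0.0537). Control-ASO mice ran from 6.53 to 9.97 CPM (median 7.59), the narrowest relative spread of the 8 genes in that group at 18.6%. Smyd3-ASO mice ran from 1.01 to 1.75 CPM (median 1.27), within the untreated range and just below every P133 mouse, by 1.02-fold. Neither placement held with library totals, where the Smyd3-ASO mice (1.23 to 1.95) lay above all untreated mice (0.580 to 1.22) and overlapped the P133 mice. The log2 change was -2.62 (SE 0.20) in Smyd3-ASO over control-ASO mice, 2.50 (SE 0.22) in control-ASO over untreated mice and -0.13 (SE 0.29) in Smyd3-ASO over untreated mice.

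The TMM-scaled sum of the bile duct markers, though not each marker, was arranged like the second pattern. Their summed level was 18.7 to 34.5 CPM (untreated), 25.1 to 51.7 (P133), 111 to 230 (control ASO) and 46.1 to 74.9 (Smyd3-ASO). Of the 5 bile duct markers tested, 2 were lower and 1 was higher in Smyd3-ASO over control-ASO mice, where 26.1% of all genes passed. In P133 over untreated mice 1 was lower and 1 higher, where 31.6% of all genes passed. Among the bile duct markers, Tspan8, a tetraspanin gene, had the smallest adjusted p in Smyd3-ASO over control-ASO mice, at a log2 change of -3.35 (adjusted p = 0.00198 by edgeR). Its means of 63.7 CPM in control-ASO and 6.30 CPM in Smyd3-ASO mice are a large part of the change in the sum. Sox9 did not pass in that comparison (-0.55, adjusted p = 0.253) and was higher in P133 over untreated mice (2.23, adjusted p = 1.77e-04). The part of these markers in the levels of Neurl1a, Nxn and Mllt3 was not tested.

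Lrrc24 and Crym showed neither pattern. Untreated mice had 0.751, 0, 0.934, 1.01 and 3.20 CPM of Lrrc24 and P133 mice 0.631, 0, 0 and 0.158 CPM. Control-ASO mice ran from 3.19 to 10.7 CPM (median 7.13) and Smyd3-ASO mice from 0 to 0.216 CPM (median 0.0582), with no count in 3 of 6. Untreated mouse 5 and control-ASO mouse 4 were level, at 3.20 and 3.19 CPM, and the other untreated mice lay below all control-ASO mice. The log2 change was -6.30 (SE 0.52) in Smyd3-ASO over control-ASO mice and 2.61 (SE 0.57) in control-ASO over untreated mice. Set against untreated mice, the P133 mice gave -2.52 (SE 1.10, adjusted p = 0.0986 by edgeR), on 4 counts in all P133 mice together. Single mice moved that value to -3.94 (without P133 mouse 1, adjusted p = 0.0596) and -1.71 (without untreated mouse 5, adjusted p = 0.226), and it passed without untreated mouse 2 (-2.85, adjusted p = 0.0267). Lrrc24 passed the filter only through the ASO mice, so nothing is read from that pass. Across all 8 genes, 11 values were 0 counts, each of which allows a level of up to 0.133 to 0.665 CPM (3 counts, counting error only).

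Crym, the thyroid hormone binding protein, spread most among the control-ASO mice. Untreated mice had 0.429, 1.66, 3.73, 2.90 and 0.668 CPM of Crym and P133 mice 0.841, 0.508, 0.443 and 0.315 CPM. Among control-ASO mice, Crym ran from 1.13 (mouse 3) to 24.7 CPM (mouse 5), a 21.8-fold span with a median of 13.2. Control-ASO mouse 3 lay inside the untreated range, and the other 5 lay above it. Smyd3-ASO mice ran from 0.180 to 0.436 CPM (median 0.300), overlapping the P133 mice and, narrowly, the lowest untreated mouse. The log2 change was -5.44 (SE 0.60) in Smyd3-ASO over control-ASO mice and 2.80 (SE 0.72) in control-ASO over untreated mice. In P133 over untreated mice it was -1.79 (SE 0.67, adjusted p = 0.0544 by edgeR), and it passed without untreated mouse 1 (-2.07, adjusted p = 0.0184) or untreated mouse 5 (-2.002, adjusted p = 0.0264). With library totals it was -1.16 (adjusted p = 0.145). Crym had 2 to 4 counts in each P133 mouse and passed the filter only through the ASO mice, so nothing is read from those passes.

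In P133 over untreated mice, 3 of the 8 genes were lower, 1 was higher and 4 did not pass, where 31.6% of all genes passed, 16.6% as lower and 15.1% as higher. The 3 that were lower also did not overlap, as did 14.5% of all genes. All 8 genes passed the filter over the 4 groups, but Lrrc24, Neurl1a and Crym passed it only through the ASO mice, since 5 genes pass when it is set on P133 and untreated mice alone. The split over all genes depended on scaling, with 2305 higher and 2532 lower after TMM scaling but 6466 higher and 823 lower when counts were scaled to library totals, which moved the median of all genes by 0.59. The lower calls of Ctse, Tnfsf10 and Pm20d1 held under both.

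The comparisons that reuse 1 ASO group share mice with the choice of genes and are given side by side, without tests. Over untreated mice, control-ASO mice were entirely higher for 3 genes (13.8% of all genes) and lower for none. Smyd3-ASO mice were entirely lower than untreated mice for 3 (Ctse, Tnfsf10 and Pm20d1, 14.6% of all genes) and entirely higher for Neurl1a (13.9%). Set against P133 mice, control-ASO mice were entirely higher for all 8 (11.3% of all genes). Smyd3-ASO mice were entirely lower than P133 mice for Mllt3 and Tnfsf10 (9.47%) and entirely higher for Neurl1a (9.8%), and overlapped with them for the other 5. With library totals Mllt3 overlapped between Smyd3-ASO and P133 mice and was entirely higher in Smyd3-ASO than in untreated mice. The gap of Tnfsf10 between Smyd3-ASO and P133 mice then all but closed, and Lrrc24 was entirely higher in control-ASO than in untreated mice. Small changes here turned with scaling: with library totals Ctse, Tnfsf10 and Pm20d1 were 0.34, 0.26 and 0.51 in control-ASO over untreated mice, and Nxn and Mllt3 were 0.82 and 0.75 in Smyd3-ASO over untreated mice. The median of all genes was then 0.90 and 0.96 in these comparisons. Between Smyd3-ASO and P133 mice the 8 log2 changes ran from -1.34 to 1.05, with a median of -0.71 beside 0.05 over all genes.

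**Figure D2:**
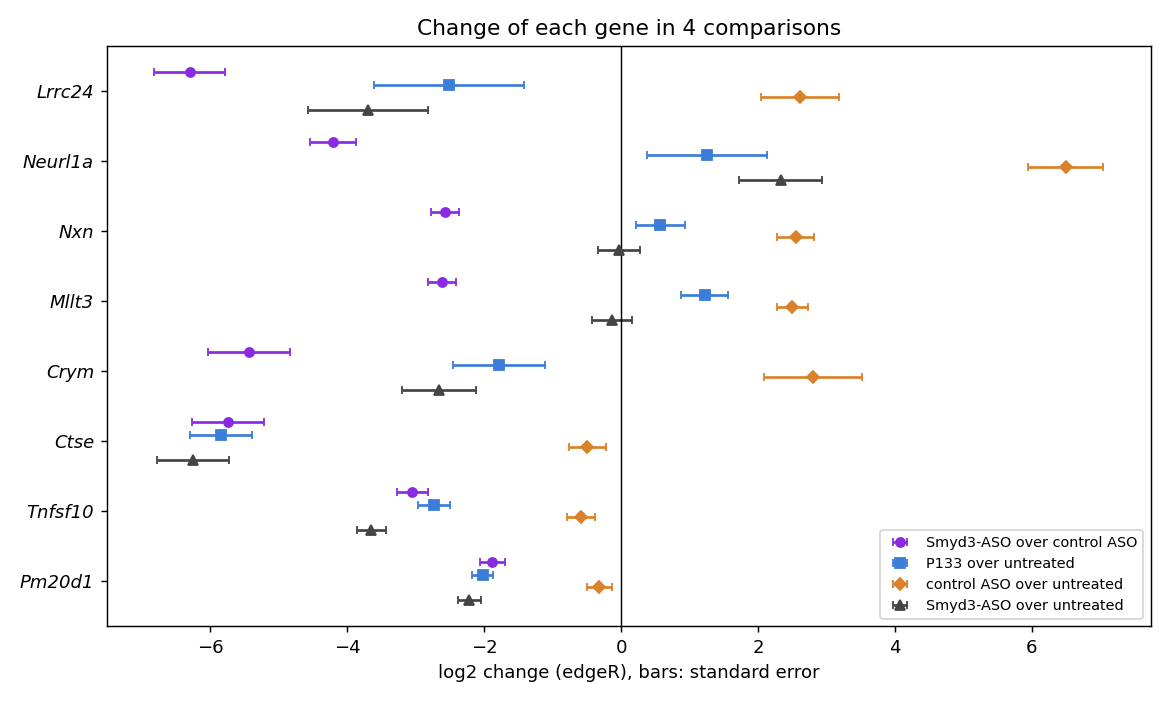
Log2 change (points) and standard error (bars) of each gene in 4 comparisons, from edgeR. Ctse, Tnfsf10 and Pm20d1 have P133 and Smyd3-ASO changes of like size, while the other 5 genes lie to the right of 0 in control-ASO over untreated mice, Neurl1a farthest (6.49) and Mllt3 least (2.50).

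None of the neighbouring genes passed as lower in Smyd3-ASO over control-ASO mice, but they are too few for anything to be read from that count. The nearest tested gene on each side, up to 835103 bases away, gave 15 genes. Of these, 1 was higher, none was lower and 14 did not pass in Smyd3-ASO over control-ASO mice. Over all genes, 26.1% passed there, 12.9% as lower. Among the same 15, 3 were higher, 2 were lower and 10 did not pass in P133 over untreated mice (15.1% higher and 16.6% lower over all genes). Lrrc14, which overlaps Lrrc24, had a log2 change of 0.29 (adjusted p = 0.116) in Smyd3-ASO over control-ASO mice and 0.60 (adjusted p = 0.00870) in P133 mice. C030006K11Rik, which also overlaps Lrrc24, had -0.53 (adjusted p = 0.0831) and -0.998 (adjusted p = 6.66e-04). With limma voom it passed as lower in Smyd3-ASO mice (-0.63, adjusted p = 0.0289), and with library totals it did not pass in P133 mice (-0.42, adjusted p = 0.104). Anks4b, 794 bases from Crym, had -0.24 (adjusted p = 0.527) and was lower in P133 mice by a log2 change of -1.41 (adjusted p = 3.60e-05). Nceh1, 32420 bases from Tnfsf10 (0.77, adjusted p = 0.0189), and Acer2, 835103 bases from Mllt3 (0.50, adjusted p = 0.0495), were higher in P133 mice. Nceh1 lost the call without P133 mouse 1 or 4 (adjusted p of up to 0.0744), and Acer2 without any of 7 single mice (up to 0.142).

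Ctse ends 121876 bases before Pm20d1 starts, and Rab7b, a gene of endosomal transport, lies between them. Rab7b moved the other way, from 1.31 ± 0.668 CPM (SD, n = 6) in control-ASO mice to 3.79 ± 0.717 (n = 6) in Smyd3-ASO mice, a log2 change of 1.49 (SE 0.34, adjusted p = 0.00662 by edgeR). The magnesium transporter gene Slc41a1, 6020 bases past Pm20d1, had 1.43 (SE 0.57, adjusted p = 0.0813 by edgeR). Its level was 3.63 ± 0.902 CPM in control-ASO and 9.74 ± 11.3 CPM in Smyd3-ASO mice, an SD above the mean. It passed with DESeq2 (adjusted p = 0.0231), but not with limma voom (0.96, adjusted p = 0.216) or library totals (1.38, adjusted p = 0.0684). Within 200 kb on either side, 8 other genes were tested. In Smyd3-ASO over control-ASO mice 1 was higher and none lower, where 26.1% of all genes passed, 12.9% as lower. In P133 over untreated mice 4 were higher (Srgap2, Nucks1, Slc45a3 and Elk4) and none lower, beside 15.1% and 16.6% of all genes. Nothing is read from counts over so few genes. This interval was chosen for a closer look after its values were seen.

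**Figure D3:**
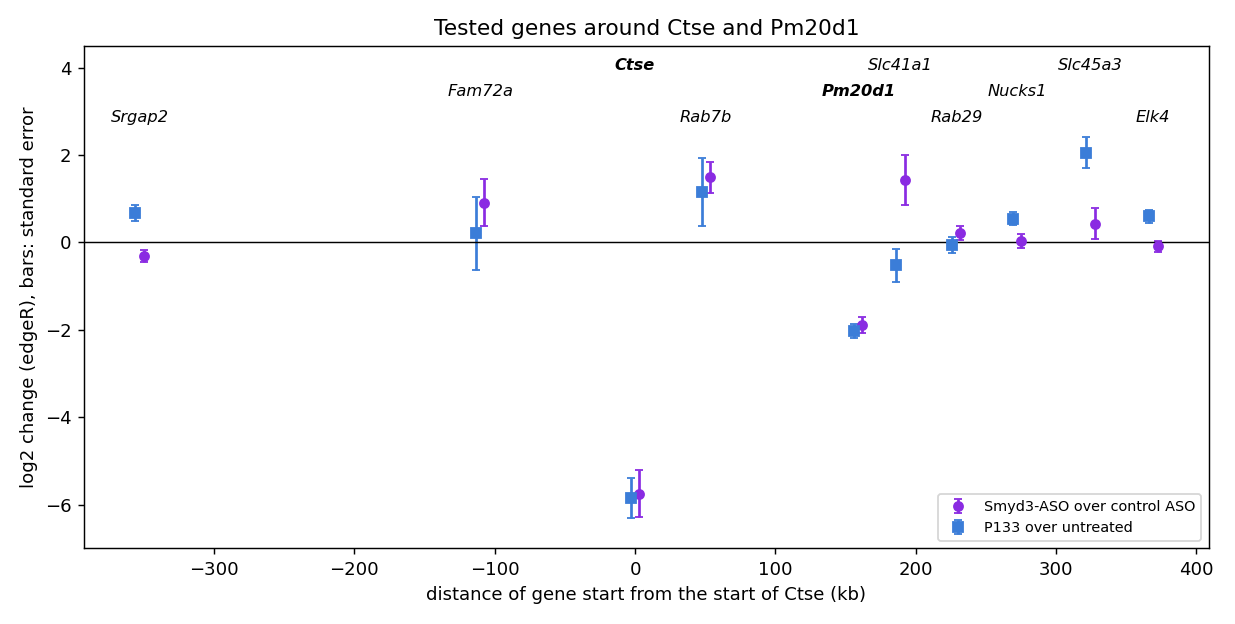
Log2 change (points) and standard error (bars) of the 10 tested genes around Ctse and Pm20d1, by distance of the gene start from the start of Ctse in kb. Only Ctse and Pm20d1 lie far below 0 in both comparisons, and Rab7b between them lies above 0.

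Likeness of pattern was measured as the root mean square difference of log2 CPM, each gene centred on its own mean, over all 21 mice and 13515 genes. Nxn and Mllt3 were the closest pair of the 8, at 0.51, and Tnfsf10 and Pm20d1 the next, at 0.58. Nxn was closest to Zfp704 (0.48), then Mllt3 and Tnfsf13 (0.56), and Mllt3 to Nxn, Gm43794 (0.51) and Tnfsf13 (0.61). Tnfsf13, which encodes the ligand APRIL, had a mean of 19.2 CPM in control-ASO mice and 2.50 to 4.49 in the other groups. Neurl1a was closest to Cd63 (0.70), a tetraspanin gene, then Shc2 (0.75), an adaptor gene, and Prom2 (0.79). Cd63 averaged 415 CPM in control-ASO mice, 61.9 in Smyd3-ASO mice, 22.8 in P133 mice and 19.7 in untreated mice.

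Pm20d1 was closest to Ces1b (0.39), a carboxylesterase gene of a multigene family, then Borcs8 (0.44) and the pseudogene Tdpx-ps1 (0.45). Ces1b averaged 204 CPM in untreated, 38.2 in P133, 148 in control-ASO and 41.1 in Smyd3-ASO mice. Tnfsf10 was closest to the pseudogenes Gm6612 (0.53) and Tdpx-ps1 (0.54), then Pm20d1. Ctse was closest to 3 pseudogenes, Gm8885 (0.80), Gm16439 (1.00) and Serpina3h (1.04), and pseudogene reads may belong to a near-identical copy. Lrrc24 and Crym had no close match, the nearest being Cables1 at 1.13 and 1.17, then Gm16332 (1.15 and 1.17), with Gm29571 (1.31) next for Lrrc24 and Rps15a-ps5 (1.18) next for Crym. For Neurl1a and Ctse, 0 of the 3 names stayed when the prior count was 0.5, so their nearest genes depend on how low counts are treated.

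The other genes of the 8 pathways were counted by list and together. Of 198 list genes tested, leaving out the 8 chosen genes, 25 were higher and 18 lower in Smyd3-ASO over control-ASO mice, which is 21.7% beside 26.1% of all genes. In P133 over untreated mice 32 were higher and 32 lower, 32.3% beside 31.6%. No set test was made.

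For TRAIL, the list of death receptors, adaptors and caspases had 5 higher and 2 lower of 30 genes in Smyd3-ASO over control-ASO mice. Bcl2l11, which encodes the pro-apoptotic protein BIM, fell from 13.5 ± 3.12 CPM (SD, n = 6) to 3.94 ± 1.29 (n = 6), a log2 change of -1.77 (adjusted p = 1.46e-04 by edgeR). Ripk1 (0.91, adjusted p = 0.00227) and Birc2 (1.35, adjusted p = 0.00228), a kinase and a ligase of receptor complexes, were higher. In P133 mice 4 were higher and 5 lower, 9 in all, against 16 with library totals. The adaptor gene Fadd was lower there (-2.04, adjusted p = 5.94e-05) and Bid, which carries the signal to mitochondria, was higher (1.79, adjusted p = 5.95e-05).

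Among cathepsins, aspartic proteases and their inhibitors, 3 were higher and 3 lower of 23 in Smyd3-ASO over control-ASO mice, and 3 higher and 6 lower in P133 mice. The cysteine cathepsin genes Ctsf (-1.02, adjusted p = 0.00114) and Ctsh (-0.50, adjusted p = 0.0119) were lower and the lysosomal membrane gene Lamp1 (0.71, adjusted p = 0.0278) higher in Smyd3-ASO mice. The Lamp1 call was lost without any of 4 single mice (adjusted p of up to 0.0598), and that of Ctsh with library totals (adjusted p = 0.0598). Ctsh (-1.41, adjusted p = 2.40e-06) and Ctsa (-1.15, adjusted p = 7.14e-06) were lower in P133 mice. Ctsh thus passed in the same direction in both comparisons, at a smaller fold than Ctse in each. Among N-acyl amino acid and related peptidase genes, 4 were higher and 1 lower of 20 in Smyd3-ASO mice, and 2 higher and 4 lower in P133 mice. The acyltransferase genes Nat8 (1.64, adjusted p = 0.00396) and Glyat (0.90, adjusted p = 0.00488) were higher and Gdpd1 (-1.53, adjusted p = 0.0122) lower in Smyd3-ASO mice, and Acy3 (-2.001, adjusted p = 1.34e-06) and Abhd4 (-1.26, adjusted p = 3.80e-05) were lower in P133 mice.

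In the Notch list 2 were higher and 1 lower of 30 genes in Smyd3-ASO over control-ASO mice, and DESeq2 called 7. The receptor gene Notch2 was lower (-1.05, adjusted p = 0.00142), and the inhibitor gene Numb (0.93, adjusted p = 0.00940) and the presenilin gene Psen2 (0.72, adjusted p = 0.0351) were higher, the last not without any of 8 single mice (adjusted p of up to 0.0778). In P133 mice 5 were higher, with Psen2 at 2.30 (adjusted p = 2.54e-06), and 3 lower, with the ligase gene Mib2 at -1.41 (adjusted p = 4.19e-04). The thioredoxin and Wnt list of Nxn had 6 higher and 5 lower of 34 in Smyd3-ASO mice, and 8 higher and 7 lower in P133 mice. Its redox genes Txn1 (1.36, adjusted p = 1.17e-04) and Prdx2 (0.72, adjusted p = 8.97e-04) were higher and the Wnt-pathway repressor gene Tcf7l1 (-1.17, adjusted p = 0.00294) lower in Smyd3-ASO mice. Prdx2 was also higher in P133 mice (0.63, adjusted p = 0.00149), and Prdx5 was lower (-1.12, adjusted p = 1.44e-04).

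The super elongation and DOT1L list of Mllt3 had 1 higher and 1 lower of 23 in Smyd3-ASO mice, and 5 higher and none lower in P133 mice. DESeq2 called 5 in the first comparison, and library totals gave 14 in the second. Hexim1, which holds the elongation kinase inactive, was lower in Smyd3-ASO mice (-0.66, adjusted p = 0.0252) and higher in P133 mice (0.94, adjusted p = 4.89e-04), and Eaf1 was higher in Smyd3-ASO mice (0.48, adjusted p = 0.0270). Both Smyd3-ASO calls ended without single mice (2 for Hexim1, adjusted p of up to 0.0575, and 6 for Eaf1, up to 0.0621). The cyclin gene Ccnt2 was higher in P133 mice (1.5002, adjusted p = 1.64e-05). The thyroid hormone list of Crym had 3 higher and 4 lower of 24 in Smyd3-ASO mice, and 4 higher and 6 lower in P133 mice. The hormone gene Fgf21 (-3.77, adjusted p = 0.00580) and the carrier gene Ttr (-0.86, adjusted p = 0.00709), which is also on the hepatocyte list, were lower and the transporter gene Slc16a10 (0.75, adjusted p = 0.0109) higher in Smyd3-ASO mice. Fgf21 spread widely, at 6.87 ± 5.97 CPM (SD) in control-ASO and 0.454 ± 0.548 CPM in Smyd3-ASO mice. Pipox (-0.998, adjusted p = 1.28e-04) was lower in P133 mice, though it did not pass with library totals (-0.40, adjusted p = 0.0678). Of 14 genes of leucine-rich repeat proteins, 1 was higher (Islr, 1.87, adjusted p = 0.0134) and 1 lower (Flrt1, -2.42, adjusted p = 0.0142) in Smyd3-ASO mice. Both levels were low, which limits these folds. Islr averaged 0.251 CPM in control-ASO and 0.994 CPM in Smyd3-ASO mice, and Flrt1 0.731 and 0.136 CPM. In P133 mice Lrrc14 was higher and the channel gene Lrrc8a (-0.62, adjusted p = 0.00922) lower, but with library totals Lrrc8a was at -0.04 (adjusted p = 0.891) and 6 genes of the list passed.

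**Figure D4:**
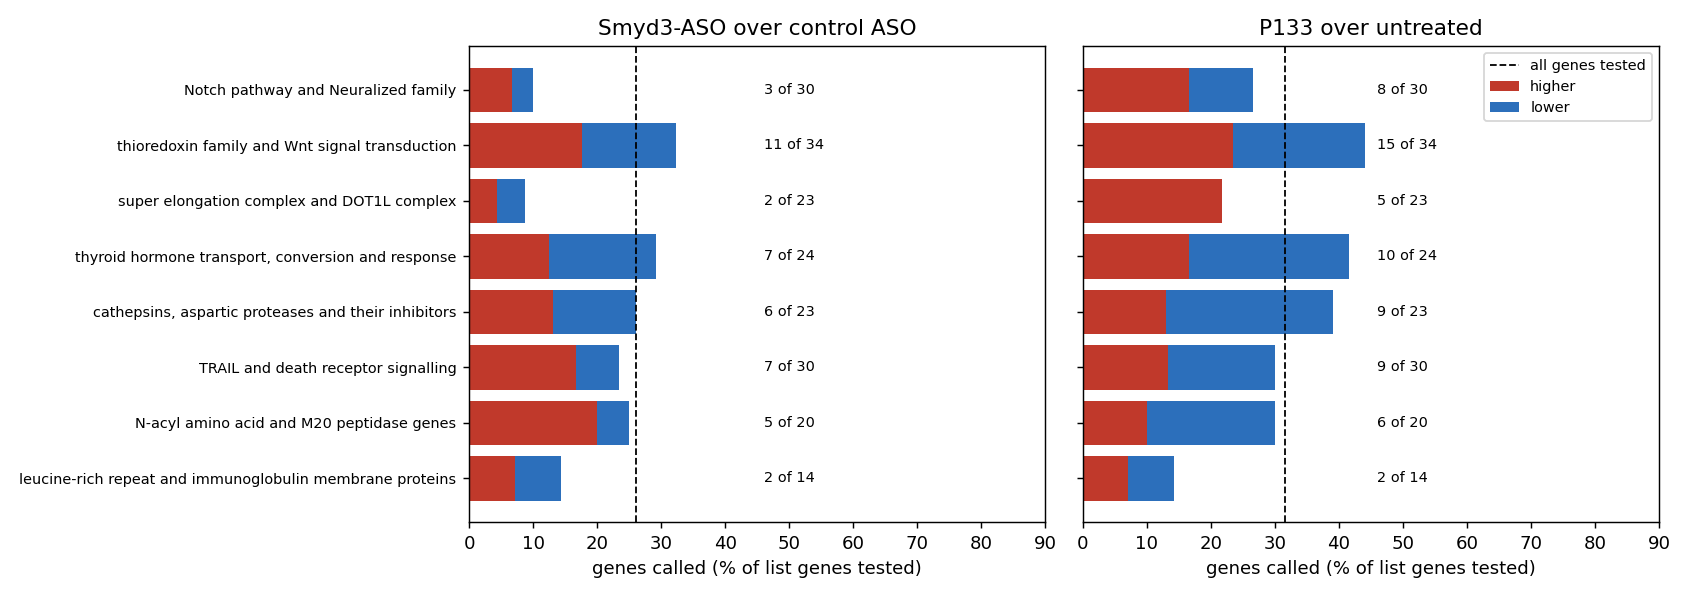
Share of tested genes in each list that were higher (red) or lower (blue) at an adjusted p of 0.05, with the number called at the right of each bar and the share over all genes as a dashed line. The lists lie on both sides of the line in Smyd3-ASO over control-ASO mice (26.1%) and in P133 over untreated mice (31.6%).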

How the data were processed

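RNA of 21 mouse livers was sequenced as 35 libraries of 3' tags (QuantSeq FWD kit). The deposit holds 1 column per mouse, merged by the authors where a mouse had several libraries. Untreated and P133 mice and Smyd3-ASO mouse 6 had 1 library each, control-ASO mice 2 and the other Smyd3-ASO mice 2 or 3, so library number differed by group. The submitters' processing notes name HISAT2 2.1.0, mm10 and DESeq; the counting program, its strand setting and its annotation are not given in the sources used here. The deposited raw table holds read counts for 55413 genes. The deposited normalized table is a score, found here to be the raw count over a size factor (100% of values within 0.51), and served as an alternative with a pseudocount of 1. Symbols and positions came from GENCODE vM21.

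Genes passing filterByExpr over the 4 groups (15297) were fitted for each pair of groups with edgeR 4.0.16 in R 4.3.3 (TMM scaling, robust two-sided quasi-likelihood test, Benjamini-Hochberg adjustment over 15297 genes, adjusted p of 0.05). The fit was tested on simulated data. CPM were TMM-scaled over all 21 mice. The filter sets the least count that can be tested, and 3' tag counts see only the ends of transcripts. Alternatives used limma 3.58.1, DESeq2 1.42.0, other filters and scaling, left-out mice and a replicate block. The 8 genes, the lists and the tests were chosen with earlier results of these data known. Named genes were the 8 genes, Smyd3, nearest tested neighbours, the 3 most alike genes (prior count 2, mean log2 CPM of at least 0), and in each list the 3 genes with the smallest adjusted p in Smyd3-ASO over control-ASO mice and the 2 in P133 over untreated mice, if past 0.05, and 1 marker per cell type. A gene that this rule names is not reported here.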

Additional observations from a re-analysis of the deposited data

Results flagged for a closer look

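Of 32 sets of values (8 genes in 4 groups) tested for a value far from the rest, 1 was picked out, and chance picks about 1 in 20. Tnfsf10 in P133 mouse 3 was 3.77 CPM, while the other 3 P133 mice lay at 2.52 to 2.71 CPM, and the gap to the nearest of them took 0.849 of the group's range, above the critical value for 4 mice. This value still lay below every untreated and control-ASO mouse.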

How the results depend on the processing

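Scaling to library totals in place of TMM had the widest effect. It raised the genes called in P133 over untreated mice from 4837 to 7289. It turned the sign of 7 changes of the 8 genes: Ctse 0.34, Tnfsf10 0.26 and Pm20d1 0.51 in control-ASO over untreated mice, Nxn 0.82 and Mllt3 0.75 in Smyd3-ASO over untreated mice, and Ctse 0.014 and Pm20d1 0.089 in Smyd3-ASO over P133 mice. The cause was not tested. In Smyd3-ASO over control-ASO mice, 159 of 160 alternative values of the 8 genes moved by less than the spread between mice, the exception being Lrrc24 at -5.49 from the deposited score. Leaving out 1 mouse at a time gave 3233 to 4447 genes called there, a median of the 8 genes of -3.76 to -3.55, 3977 to 4946 genes called in P133 over untreated mice and 3 to 5 of the 8 genes called. The counts of 5 without single mice came from a pass of Crym or Lrrc24. In P133 over untreated mice, Crym also passed with DESeq2 (adjusted p = 0.0440) and with no filter (0.0183), and Nxn with library totals (1.14, adjusted p = 0.0218). Crym and Lrrc24 passed the main filter on low counts only through the ASO mice, so nothing is read from their passes. A filter set on P133 and untreated mice alone was added after seeing the data, as were the runs without single mice and with library totals for genes other than the 8 and for the group patterns, and left the same count of 4.

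Replicate numbers did not pair the mice (correlations of deviations -0.0883 to 0.0343 over 6 pairs and -0.0635 to 0.0361 over 4, none best with its own number). With the replicate block, 3093 and 4359 genes were called, the median of the 8 genes in Smyd3-ASO over control-ASO mice was -3.57, and 3 of the 8 were called in P133 over untreated mice, with Mllt3 at 1.10 (adjusted p = 0.0568). Counts of 4 or fewer per mouse limit Neurl1a, Crym, Ctse and Lrrc24 in P133 mice, Neurl1a in untreated mice and Lrrc24 in Smyd3-ASO mice, and so the sizes of the changes that rest on them.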

Other observations

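Other cell type lists gave these values. Macrophage markers summed to 177 to 310 CPM (untreated), 244 to 373 (P133), 130 to 303 (control ASO) and 184 to 372 (Smyd3-ASO). Neutrophil markers summed to 9.25 to 102 CPM in Smyd3-ASO mice and to 2.33 to 34.6 CPM in the other groups. T and NK cell markers stayed at or below 6.37 CPM in every mouse, and Gkn1, Prss1 and Snap25 had no count in any mouse. Of 47 markers tested over all lists, 7 were higher and 12 lower in Smyd3-ASO over control-ASO mice, where 26.1% of all genes passed. In P133 over untreated mice 9 were higher and 14 lower, where 31.6% of all genes passed.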
